A study of Mus musculus with 34 samples.

Results

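The genes described here are Dnmt1, Uhrf1, Dnmt3a, Dnmt3b, Dnmt3l, Tet1, Tet2 and Tet3, 8 of the 21887 protein-coding genes of the mouse RefSeq table for build GRCm38.p6. They were chosen by name as the core genes of DNA methylation and demethylation. The data are lists of intervals from ATAC-seq, an assay that uses the Tn5 transposase to cut and label DNA not covered by protein. Each of 12 groups of mouse male germ cells has 1 list of subnucleosome peaks, which mark open DNA, and 1 list of nucleosome calls, with a median width of 150 bp. All 8 genes were found, and their intervals were read in the gene and in 1 kb on either side.

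Methylation of cytosine in CpG dinucleotides is copied onto new DNA strands by DNMT1, which UHRF1 guides to half-methylated sites. DNMT3A and DNMT3B place new methyl groups, and DNMT3L is a related protein without catalytic activity that assists them in germ cells. The TET enzymes TET1, TET2 and TET3 oxidise 5-methylcytosine, a step towards its removal. In the male germ line new methylation is laid down mainly before birth, long before the stages sampled here, in which cells finish meiosis, stop copying their DNA, and replace most histones with protamines.

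The cKO groups came from C57BL6 GCN5-/- mice, in which homozygous floxed alleles of the histone acetyltransferase gene Gcn5 (symbol Kat2a) are removed by a Stra8-driven Cre, a driver active in male germ cells before meiosis. The SV129 groups came from SV129 mice with intact Gcn5, aged 8 to 12 weeks, and the WT groups from C57BL6 GCN5+/+ mice. Each background was sampled at the meiotic stage (MS), as round (RS) and elongating (ES) spermatids, and as mature sperm (Sp). The cKO and WT groups had 2 biological replicates per stage. The SV129 groups had 2 biological replicates in 4 libraries for MS, RS and ES, and 6 biological replicates for Sp. Immature cells were fractions of at least 85% purity from a velocity sedimentation gradient of dissociated testis, and sperm were taken from the cauda epididymis and washed in a somatic cell lysis buffer. Cells of 11 animals were pooled per collection. The one protocol attached to every sample names only SV129 mice, so the age and pool size of the C57BL6 mice are not known from it, nor is whether the GCN5+/+ mice carried the Cre, or how complete the deletion was.

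Each list combines the libraries of a group, so no value has an SD or a test, and read depth is unknown. Differences are therefore between single lists, and the SV129 list set against the WT list of the same stage gives the distance between 2 backgrounds with intact Gcn5. List length differed greatly between groups. The subnucleosome lists held 16087 peaks in cKO, 33060 in SV129 and 35822 in WT at MS, and 4075, 29243 and 56480 in the same order at RS. The ES lists held only 473, 787 and 562 peaks, and the Sp lists 1127, 10715 and 3024. The nucleosome lists ranged from 199111 to 591189 calls, except in sperm, where cKO had 347951, SV129 13615 and WT 8628. At the gene ends, peaks lay at 8 of 10 meiotic markers in each MS list, and at 3 in cKO, 7 in SV129 and 8 in WT at RS, so these markers do not tell MS from RS in SV129 and WT. Of 10 spermatid markers, 4 in cKO, 4 in SV129 and 6 in WT had a peak at MS, and 0 in cKO, 9 in SV129 and 9 in WT at RS, where 12% of all coding genes had one in cKO, 43.1% in SV129 and 50.3% in WT. Among markers of other cells, blood and immune genes had none in any list, and Sertoli genes at most 1 of 8 (Amh, in SV129 and WT MS). Leydig genes had at most 1 of 6, epididymal genes up to 3 of 8 (Cst8, Krt8 and Epcam, in SV129 MS and WT RS) and spermatogonial genes up to 4 of 10 (WT RS), with 0 Leydig and 0 epididymal markers in any cKO list. No ES list had a peak at any marker, so peaks do not check the ES label. The part of other cells in the results was not tested. Over the Gcn5 gene itself 1 peak was listed in each of the cKO, SV129 and WT MS lists, which does not check the deletion, since the files give no reads over the floxed part.

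The start sites carry most of the results below, so the sequences of 6 of them are shown first. RefSeq promoter windows (GRCm38.p6), which run from 250 bp before to 50 bp after a start, were found for all 8 genes, at 15 start sites in all. The windows of the 3 Dnmt1 starts are shown because open DNA lay at the inner starts and never at the outer one. Those of Uhrf1 start 2 and Tet2 are shown as one of the most often open starts and the most CpG-rich one, and that of Tet1 as one without any peak. Each is written 5′ to 3′ along the gene, with CpG dinucleotides in capitals. The windows are chr9:20959839-20960138, chr9:20952930-20953229 and chr9:20952574-20952873 on the minus strand for Dnmt1 starts 1, 2 and 3. They are chr17:56304063-56304362 on the plus strand for Uhrf1 start 2, chr3:133544341-133544640 on the minus strand for Tet2, and chr10:62887275-62887574 on the minus strand for Tet1.
Dnmt1 start 1: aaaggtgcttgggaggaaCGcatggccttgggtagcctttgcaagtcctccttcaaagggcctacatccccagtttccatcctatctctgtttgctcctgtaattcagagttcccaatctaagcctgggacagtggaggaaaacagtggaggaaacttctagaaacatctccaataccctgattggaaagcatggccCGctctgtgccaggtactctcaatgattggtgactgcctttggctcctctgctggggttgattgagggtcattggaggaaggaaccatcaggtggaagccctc
Dnmt1 start 2: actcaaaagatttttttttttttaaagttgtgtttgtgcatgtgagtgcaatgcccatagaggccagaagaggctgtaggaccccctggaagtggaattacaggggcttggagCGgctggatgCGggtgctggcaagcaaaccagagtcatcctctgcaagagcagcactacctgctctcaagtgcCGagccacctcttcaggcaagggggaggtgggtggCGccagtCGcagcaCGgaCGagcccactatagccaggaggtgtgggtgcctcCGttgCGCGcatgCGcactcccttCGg
Dnmt1 start 3: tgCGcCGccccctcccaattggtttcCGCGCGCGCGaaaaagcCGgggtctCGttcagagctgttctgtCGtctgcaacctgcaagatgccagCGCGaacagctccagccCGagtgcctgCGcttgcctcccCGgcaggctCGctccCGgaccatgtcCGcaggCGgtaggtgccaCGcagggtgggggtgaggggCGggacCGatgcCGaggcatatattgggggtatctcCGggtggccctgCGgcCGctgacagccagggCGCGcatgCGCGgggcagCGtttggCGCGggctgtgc
Uhrf1 start 2: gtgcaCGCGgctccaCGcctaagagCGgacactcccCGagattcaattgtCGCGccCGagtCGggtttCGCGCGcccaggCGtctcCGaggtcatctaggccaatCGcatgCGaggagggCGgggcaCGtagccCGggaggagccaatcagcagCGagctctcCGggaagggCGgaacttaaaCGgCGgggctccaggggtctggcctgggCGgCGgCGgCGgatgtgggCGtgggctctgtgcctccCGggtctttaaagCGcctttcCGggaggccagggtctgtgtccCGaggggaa
Tet2 start 1: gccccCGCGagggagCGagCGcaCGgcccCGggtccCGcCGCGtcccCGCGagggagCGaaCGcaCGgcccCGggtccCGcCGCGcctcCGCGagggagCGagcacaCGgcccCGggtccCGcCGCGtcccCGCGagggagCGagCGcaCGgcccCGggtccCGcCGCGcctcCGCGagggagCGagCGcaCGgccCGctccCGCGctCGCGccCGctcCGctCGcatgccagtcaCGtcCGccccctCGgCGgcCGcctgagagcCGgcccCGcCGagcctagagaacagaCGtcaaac
Tet1 start 1: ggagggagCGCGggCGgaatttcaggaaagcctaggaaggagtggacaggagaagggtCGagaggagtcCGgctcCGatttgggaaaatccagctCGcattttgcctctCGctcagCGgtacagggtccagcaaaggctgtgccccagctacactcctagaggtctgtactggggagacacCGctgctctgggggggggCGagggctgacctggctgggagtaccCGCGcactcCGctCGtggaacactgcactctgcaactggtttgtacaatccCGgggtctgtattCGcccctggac

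Dnmt1 start 1 has 2 CpGs in its 300 bp, against 12 at start 2 and 33 at start 3. Uhrf1 has 12 at start 1 and 33 at start 2. Dnmt3a has 46, 47 and 18 at its 3 starts, Dnmt3b has 30, and Dnmt3l has only 6, 4 and 3. Tet1 has 17, Tet2 has 57 and Tet3 has 22. The median of the 15 starts is 18, and that of all 21263 promoters of coding genes is 13, with quartiles of 4 and 24. The Tet2 window holds more CpGs than 99.8% of all promoters, and the outer Dnmt1 window more than 11.4%. A search of both strands, with overlapping matches counted, found GGGCGG, the GC box bound by Sp1-type factors, in 12 of the 15 windows (80%), against 46.2% of all promoters. CCAAT was found in 5 of the 15 windows (33.3%), those of Dnmt1 starts 1 and 3, both Uhrf1 starts and Tet3, against 38.2% of all promoters. TGACGTCA, the cAMP response element used by the testis factor CREM, was found in none of the 15 and in 2.23% of all promoters. These matches are letters in the windows and show no binding.

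In all, 52 subnucleosome peaks lay in and around the 8 genes, at 22 separate sites. The cKO, SV129 and WT lists held 6, 10 and 13 of them at MS, and 1, 3 and 11 at RS. The ES lists held none, and the Sp lists 0 in cKO, 6 in SV129 and 2 in WT. Of the 52 peaks, 35 (67.3%) had their centre within 1 kb of a RefSeq start, against 58.5% of the peaks in the spans of all coding genes with a promoter entry. Of the 22 sites, 12 were in a single list and 5 were in 4 lists or more. These 5 were near the starts of Dnmt1, Uhrf1, Dnmt3b and Tet2, and far inside Tet1.

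**Figure D1:**
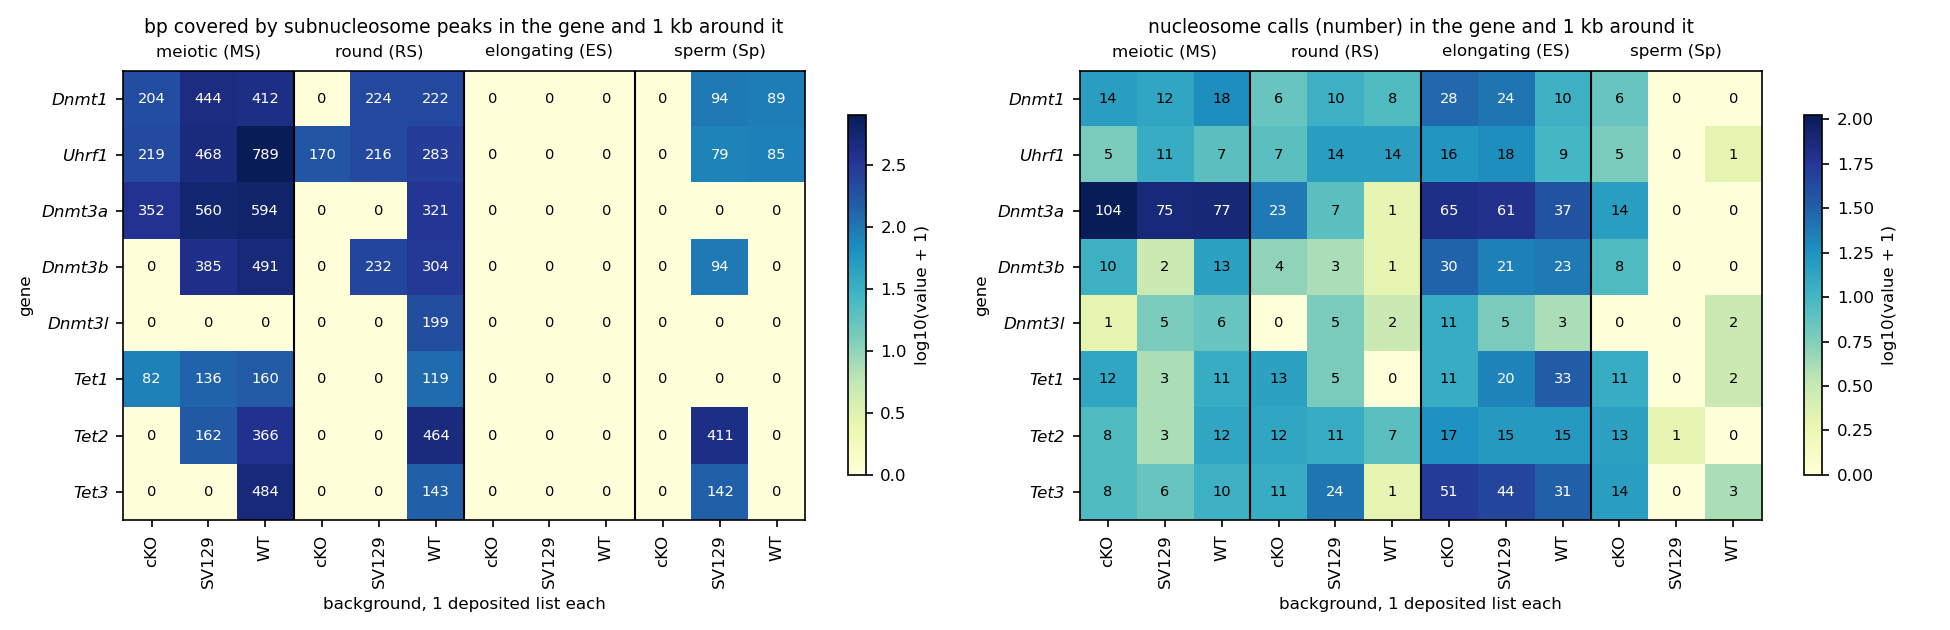
Left, base pairs covered by subnucleosome peaks, and right, the number of nucleosome calls, in each gene and 1 kb around it (rows) in each of the 12 lists (columns, grouped by stage). Peak cover is at 0 for every gene in the 3 ES lists and in cKO sperm, while the nucleosome panel has its highest count, 104, at Dnmt3a in cKO MS.

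By the window around either annotated end, 1 of the 8 genes had a peak in cKO MS (Uhrf1), against 35.8% of all coding genes. In SV129 MS there were 3 (Uhrf1, Dnmt3b and Tet2) against 48.6%, and in WT MS 4 (the same 3 and Tet3) against 51.2%. In round spermatids the count was 1 in cKO (Uhrf1; 12% of coding genes), 2 in SV129 (Uhrf1 and Dnmt3b; 43.1%) and 3 in WT (Uhrf1, Dnmt3b and Tet2; 50.3%). In elongating spermatids it was 0 in all 3 lists, against 0.119% of coding genes in cKO, 0.155% in SV129 and 0.0731% in WT. In sperm it was 0 in cKO (3.55%), 2 in SV129 (Tet2 and Tet3; 23.1%) and 1 in WT (Uhrf1; 8.7%). The MS and RS shares of the 8 genes lay near those of all coding genes or below them, and the SV129 and WT sperm shares slightly above.

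Anywhere in the gene or 1 kb around it, a peak was listed at MS for 4 of the 8 genes in cKO (44.9% of coding genes), 6 in SV129 (60.5%) and 7 in WT (63.4%), the one without being Dnmt3l. At RS this held for 1 gene in cKO (14.9%), 3 in SV129 (55.8%) and all 8 in WT (64.1%). At ES it held for none, against 0.535% of coding genes in cKO, 0.964% in SV129 and 0.507% in WT. In sperm it held for 0 in cKO (4.15%), 5 in SV129 (31.6%) and 2 in WT (11.6%), so the WT RS list was the one in which every gene of the 8 had a peak.

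The end windows miss start sites that lie inside the annotated gene. Counted within 1 kb of any RefSeq start, a choice made after the peak positions were seen, 3 of the 8 genes had a peak in cKO MS (Dnmt1, Uhrf1 and Dnmt3a; 37.9% of coding genes with a promoter entry). There were 5 in SV129 MS (50.8%) and the same 5 in WT MS (53.6%), namely those 3 with Dnmt3b and Tet2. In round spermatids there was 1 in cKO (Uhrf1; 13.1%), 3 in SV129 (Dnmt1, Uhrf1 and Dnmt3b; 45.2%) and 6 in WT (52%), the other 3 being Dnmt3a, Dnmt3l and Tet2. At ES there were none (0.0858% in cKO, 0.0972% in SV129 and 0.0686% in WT), and in sperm there were 0 in cKO (3.8%), 2 in SV129 (Dnmt1 and Tet2; 24.5%) and 2 in WT (Dnmt1 and Uhrf1; 9.16%). The cKO count was thus at or below both intact counts at every stage.

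**Figure D2:**
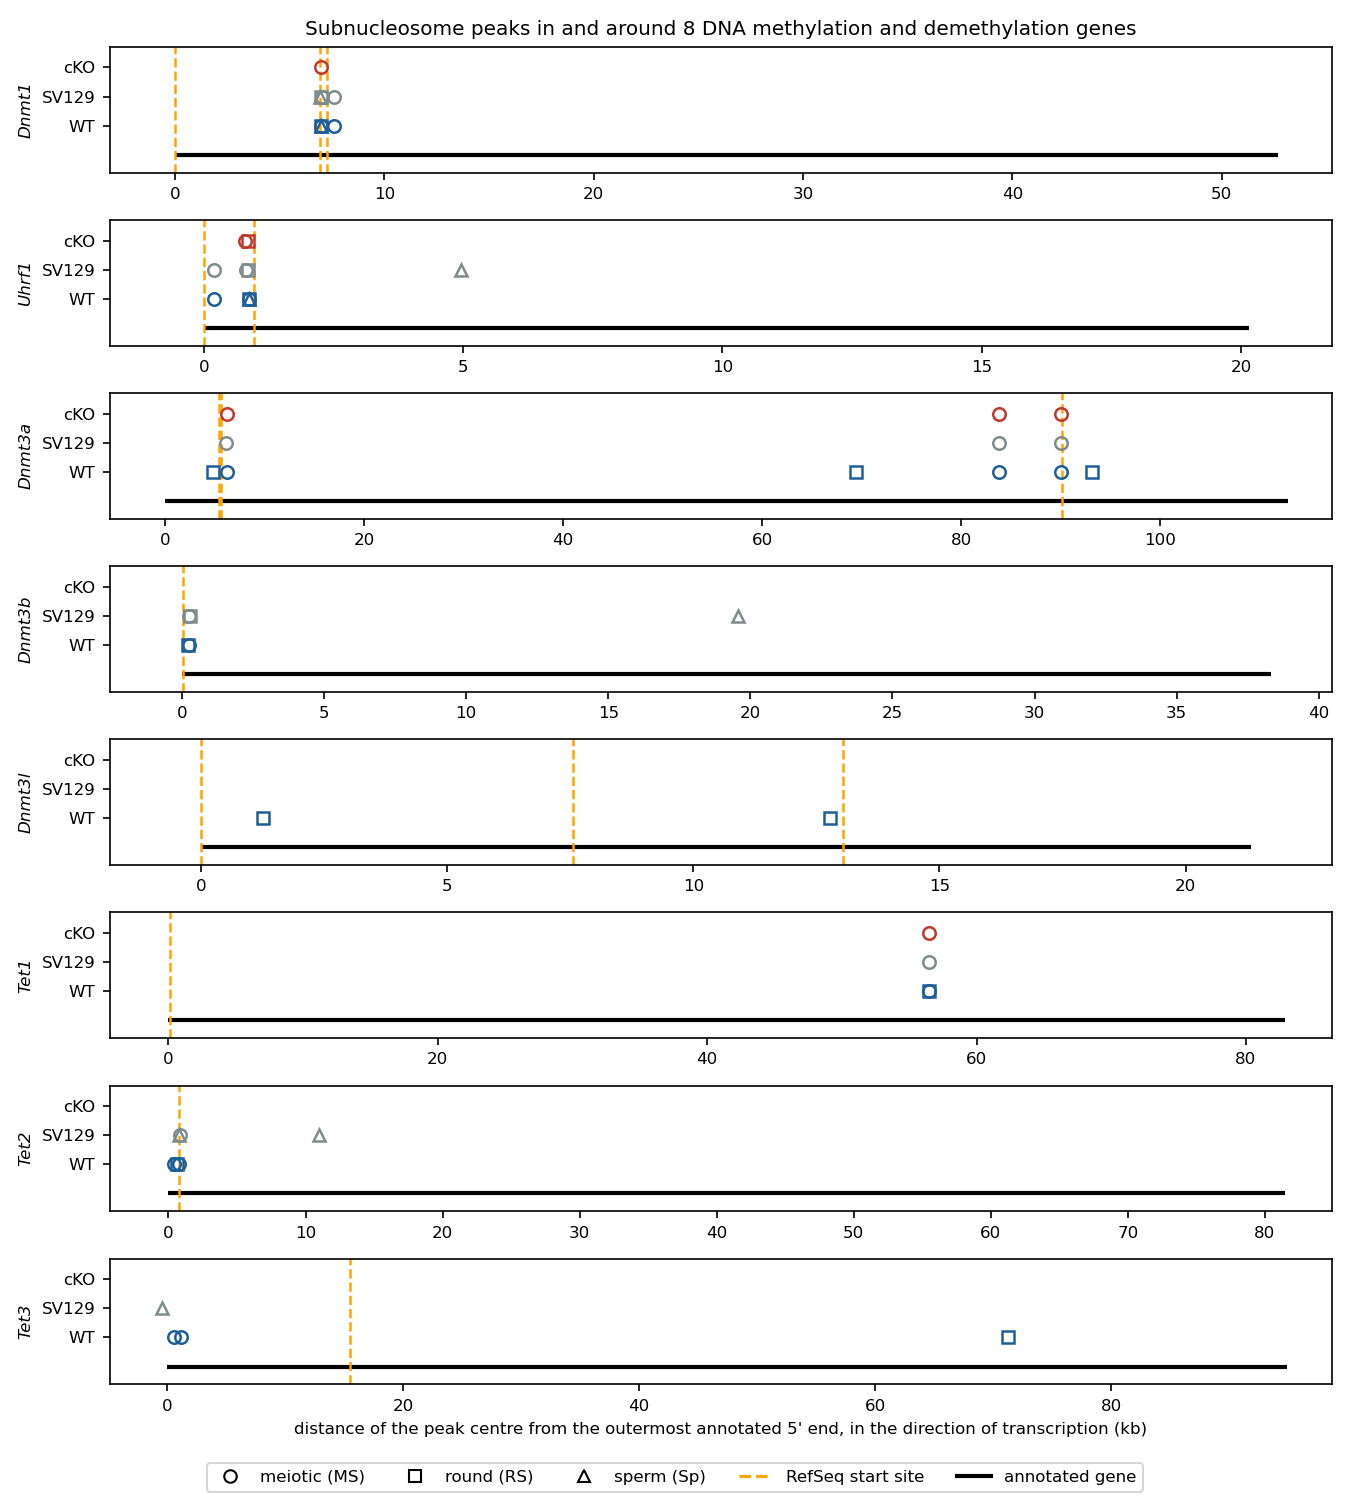
Centres of all 52 subnucleosome peaks along each gene, in kb from its outermost annotated 5′ end in the direction of transcription, by background (rows cKO, SV129, WT) and stage (symbol). Dashed lines are RefSeq start sites; peaks pile up at the inner starts of Dnmt1 and at Uhrf1 start 2, the cKO rows are empty for Dnmt3b, Dnmt3l, Tet2 and Tet3, and Tet1 has its single site 56.5 kb inside the gene.

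Dnmt1 (chr9:20907206-20959888, minus strand), the maintenance methyltransferase gene, had no peak at its outer start 1 in any list. Its peaks lay 6.91 and 7.27 kb further in, at starts 2 and 3, where a site at chr9:20952690-20953063 was listed in 7 of the 12 lists. The peak there was 204 bp long in cKO MS, 361 bp in SV129 MS and 267 bp in WT MS. At RS cKO had no peak, whereas SV129 had one of 224 bp and WT one of 222 bp, with their ends within 2 bp of each other. In sperm cKO again had none, SV129 had one of 94 bp and WT one of 89 bp. The sperm peaks were the shortest of the 7 and lay inside the MS and RS peaks, centred 28.5 bp (SV129) and 36 bp (WT) downstream of start 2. They cover the end of the Dnmt1 start 2 window printed above, 68 of its bases in SV129 and 58 in WT. By the deposited score, the cKO MS peak stood above 85.7% of its list, the WT MS peak above 93.2%, the WT RS peak above 83.5% and the WT Sp peak above 75% of theirs. All SV129 subnucleosome scores are 0, so its peaks cannot be ranked. A separate peak further downstream, at chr9:20952226-20952370, was listed in SV129 MS (83 bp) and WT MS (145 bp) and not in cKO MS.

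Uhrf1 (chr17:56303337-56323486, plus strand), whose protein brings DNMT1 to newly copied DNA, was the one gene of the 8 with a peak in cKO round spermatids. Its site at chr17:56303910-56304505, just upstream of start 2, was listed at MS and RS in all 3 backgrounds and in WT sperm. At MS the peak was 219 bp in cKO, 264 bp in SV129 and 596 bp in WT. At RS it was 170 bp in cKO, 216 bp in SV129 and 283 bp in WT, so the cKO peak was the shortest at both stages. In WT sperm it was 85 bp, and neither cKO nor SV129 sperm had a peak there. The score of the cKO RS peak was 5.90, above 28.3% of the cKO list, and that of the WT RS peak was 47.2, above 89.1% of the WT list. The scores of the 2 lists come from separate runs and are compared only by rank within each list. At start 1, a second peak was listed in SV129 MS (204 bp) and WT MS (193 bp) but not in cKO MS. The only SV129 sperm peak in Uhrf1 was 79 bp long and 4.97 kb inside the gene, where no MS or RS peak lay.

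**Figure D3:**
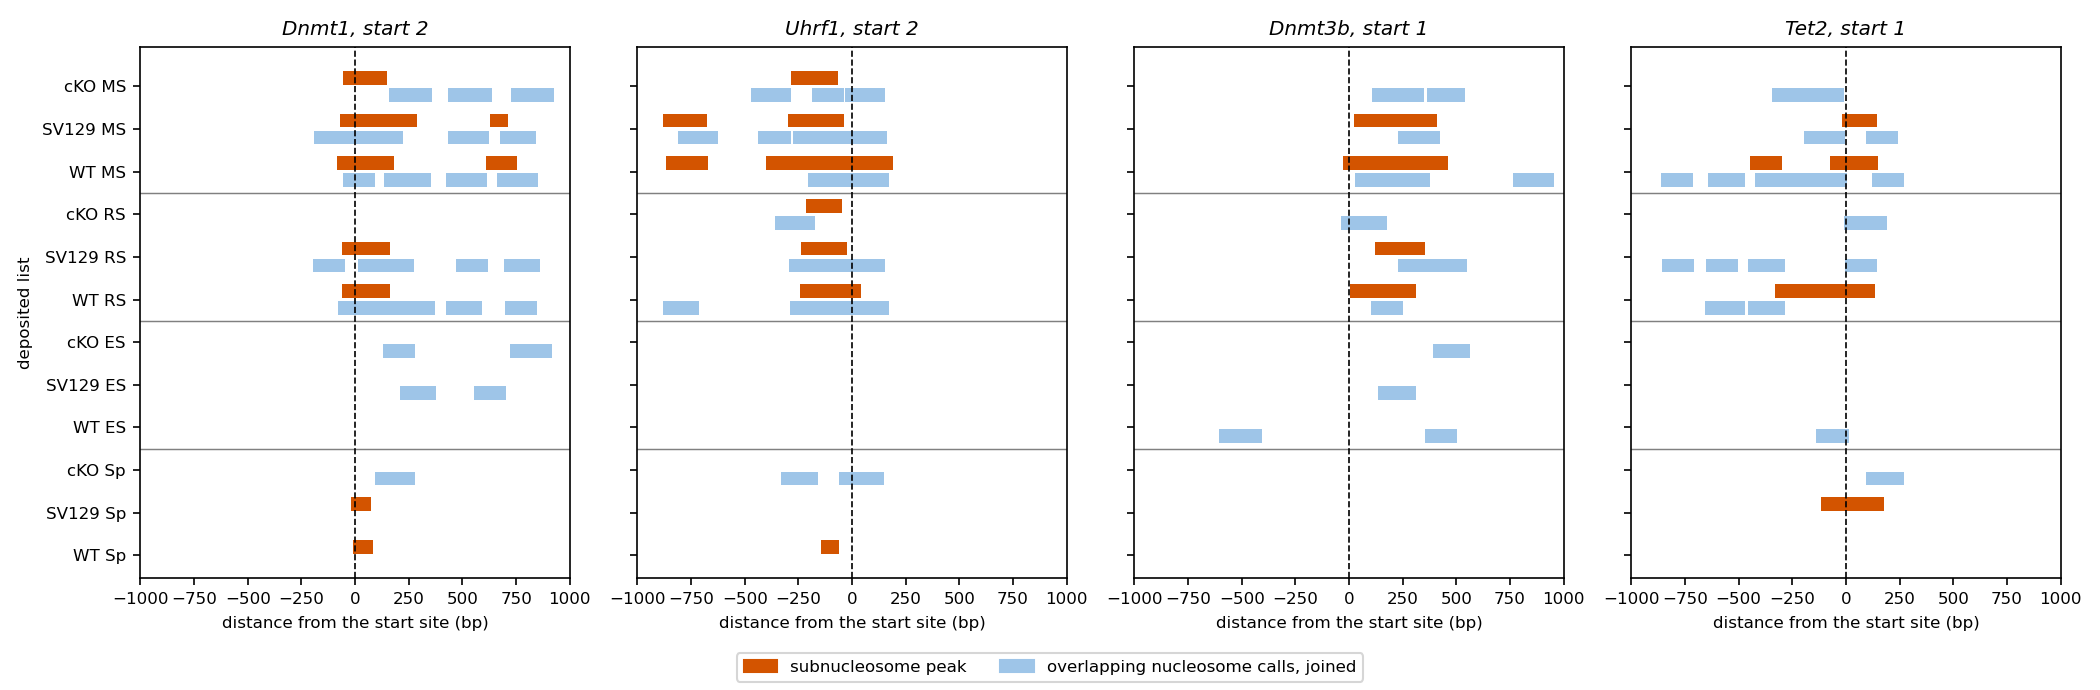
Subnucleosome peaks (orange) and joined nucleosome calls (blue) within 1000 bp of 4 start sites, in bp downstream of the start, with 1 row per list (cKO, SV129 and WT within each stage). At the Dnmt1 and Uhrf1 starts the MS, RS and Sp lists that hold a peak have one at the same place, and no ES row holds one. At Dnmt3b and Tet2 no cKO row holds a peak. The cKO rows with nucleosome calls are MS, RS and ES at Dnmt3b, and MS, RS and Sp at Tet2.

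Nucleosome calls lay around the same starts and partly over the peaks. Of the 52 peaks of the 8 genes, 32 (61.5%) were overlapped by a nucleosome call of the same group. This share was not computed over the peaks of all coding genes, so it is a description only. At Dnmt1 start 2, calls in cKO MS formed 3 blocks centred 257.5, 535 and 827.5 bp downstream of the start. WT MS had them at 242.5, 517.5 and 757.5 bp, besides one at 17.5 bp, and SV129 MS at 527.5 and 757.5 bp besides a block of 415 bp across the start. SV129 RS and WT RS again had calls near 542.5 and 777.5 bp and near 507.5 and 772.5 bp. In cKO RS no call lay within 1000 bp of Dnmt1 start 2, so neither class of interval was listed there. At Uhrf1 start 2, cKO RS had 1 block of 190 bp centred at -266.5 bp, against blocks of 450 bp in SV129 and 465 bp in WT that spanned the start. All 5 calls in Uhrf1 in cKO sperm lay at start 2, in 2 blocks, and all 5 overlapped calls of the SV129 or WT MS or RS lists. No call lay within 1000 bp of Uhrf1 start 2 in SV129 or WT sperm.

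Among the de novo genes, Dnmt3b (chr2:153649411-153687730, plus strand) had a peak at its single start in SV129 and WT lists and in no cKO list. The site at chr2:153649421-153649911 was absent from cKO MS, 385 bp in SV129 MS and 491 bp in WT MS. It was also absent from cKO RS, 232 bp in SV129 RS and 304 bp in WT RS, so at both stages the 2 intact lists held it and the cKO list did not. The WT MS peak covered the start itself, and the other 3 began 25 bp (SV129 MS), 121 bp (SV129 RS) and 6 bp (WT RS) downstream of it. The WT scores there were moderate, above 64.4% of the list at MS and 34.5% at RS. Nucleosome calls at the Dnmt3b start were present in 9 lists, those of MS, RS and ES in every background. In cKO they were centred 227.5 and 451 bp downstream of the start at MS, 70 bp at RS and 477.5 bp at ES. A single SV129 sperm peak of 94 bp lay 19.6 kb inside Dnmt3b and matched no peak of another list.

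Dnmt3a (chr12:3801559-3914443, plus strand), the longest of the 8 genes, had 3 sites that were listed in all 3 MS lists and in no other list. The first, 598.5 bp downstream of start 2, was 143 bp in cKO, 290 bp in SV129 and 295 bp in WT. The second, 83.8 kb inside the gene and within another annotated gene, Gm31623, was 98 bp in cKO, 112 bp in SV129 and 115 bp in WT. The third, centred at -151 bp relative to start 3 and also within Gm31623, was 111 bp in cKO, 158 bp in SV129 and 184 bp in WT. Each of the 3 was shortest in cKO. WT RS held 3 other Dnmt3a peaks of 86 to 129 bp at other places, with scores above 9.99%, 1.20% and 21.3% of its list, and cKO RS and SV129 RS held none. The WT RS list is the longest of the 12 subnucleosome lists.

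Dnmt3l (chr10:78042287-78063622, plus strand) had the fewest peaks of the 8 genes, 2 in WT RS and none in any other list. One of them, of 119 bp, lies where Dnmt3l overlaps Aire, and the peak cannot be assigned to either gene. The other, of 80 bp, lay at -266.5 bp relative to start 3, with a score above 14.4% of the list. Nucleosome calls just downstream of Dnmt3l start 3 recurred in the 4 intact MS and RS lists, centred 106.5 bp (SV129) and 101.5 bp (WT) at MS and 118.5 bp (SV129) and 124 bp (WT) at RS. No cKO list had a call there at those stages. In the whole gene cKO had 1 nucleosome call at MS, against 5 in SV129 and 6 in WT, and 0 at RS, against 5 in SV129 and 2 in WT.

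Of the oxidases, Tet2 (chr3:133463677-133545136, minus strand) had the same pattern of lists at its start as Dnmt3b at MS. No cKO list held a peak anywhere in Tet2. At MS SV129 had one of 162 bp at the start and WT one of 220 bp and another of 146 bp centred at -373.5 bp relative to it. At RS SV129 had none and WT one of 464 bp, which covers the whole 300 bp of the Tet2 window printed above. SV129 sperm had one of 293 bp, the longest sperm peak of the 8 genes, and a second of 118 bp 11.0 kb inside the gene, whereas WT sperm had none. Nucleosome calls lay within 1 kb of the start in 8 lists, among them all 3 cKO lists of MS, RS and Sp. The cKO calls spanned 335 bp upstream of the start at MS and lay 90 bp downstream at RS and 182.5 bp downstream in sperm.

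Tet1 (chr10:62804570-62887469, minus strand) had no peak within 1 kb of its start in any list. Its one site, chr10:62830904-62831063, lies 56.5 kb inside the gene and was listed in cKO MS (82 bp), SV129 MS (136 bp), WT MS (160 bp) and WT RS (119 bp). Its score stood above 19.4% of the list in cKO MS, above 85.2% in WT MS and above 70.7% in WT RS. Tet3 (chr6:83362373-83457208, minus strand) had 2 peaks near its outer 5′ end in WT MS, of 291 and 193 bp, 1 peak of 143 bp 71.3 kb inside the gene in WT RS, and 1 of 142 bp just outside the gene in SV129 sperm. None recurred in a second list, none lay within 1 kb of its RefSeq start, and no cKO list held any Tet3 peak. Nucleosome calls were listed within 1 kb of the Tet3 start in 8 lists and of the Tet1 start in 3. Those of Tet1 were in WT MS, SV129 ES and WT ES, so no cKO list had one.

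**Figure D4:**
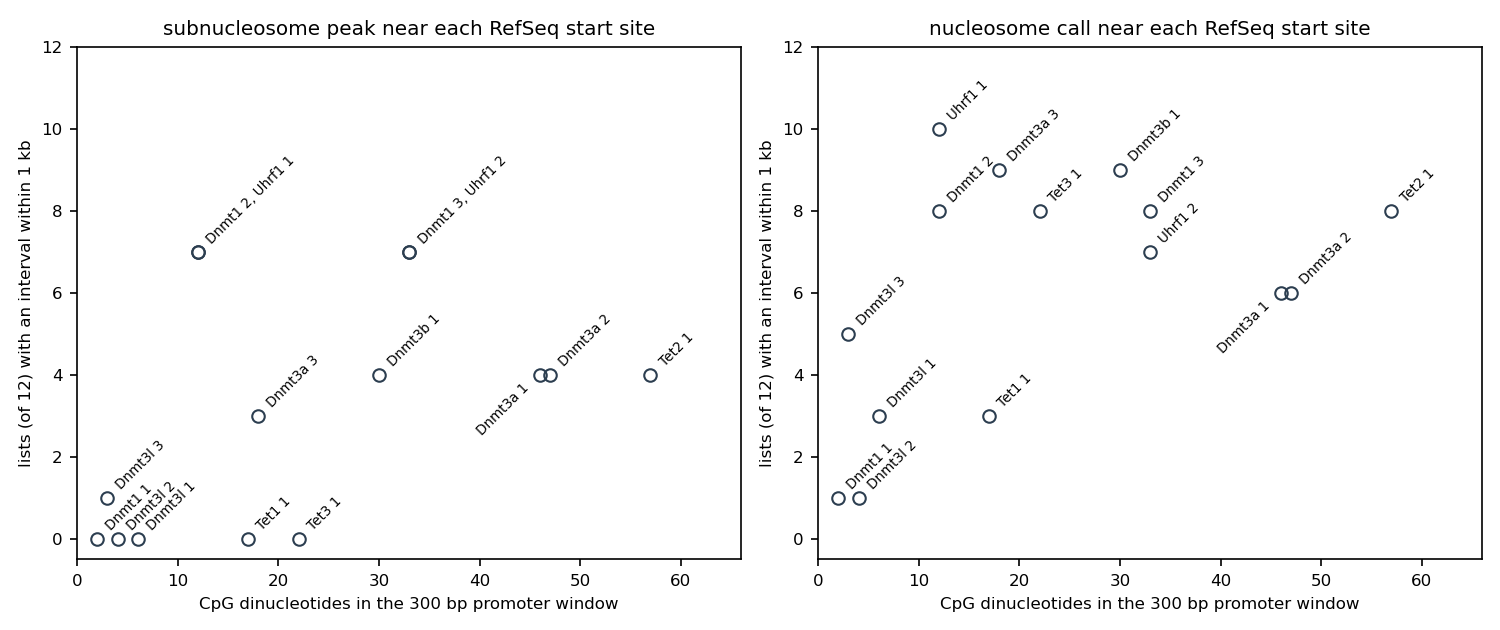
For each of the 15 RefSeq start sites, the number of CpGs in its 300 bp window (x axis) and the number of the 12 lists with a subnucleosome peak (left) or a nucleosome call (right) within 1 kb (y axis); gene name and start number stand beside each point. The 4 windows with 6 CpGs or fewer have a peak in at most 1 list, while Tet2, with 57, has one in 4 lists.

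The 4 CpG-poor windows, those of Dnmt1 start 1 and the 3 Dnmt3l starts, had a peak nearby in at most 1 list. Among the others the number of lists did not follow the CpG count, since Dnmt1 start 2 and Uhrf1 start 1, with 12 CpGs each, had a peak within 1 kb in 7 lists and Tet1 and Tet3, with 17 and 22, in none. Starts closer together than 1 kb share their peaks in this count. Over all promoters of coding genes the share with a peak within 1 kb was higher at CpG-rich starts in every MS, RS and Sp list. In WT MS it was 8.24% in the lowest quartile of CpG number and 86.4% in the highest, and in cKO RS 1.11% and 23.5%.

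Set against WT at the gene ends, 3 of the 4 genes with a peak in WT MS had none in cKO MS (Dnmt3b, Tet2 and Tet3), where 30.5% of all coding genes with such a peak had none. Against SV129, 1 of the 4 had none (Tet3), with 9.31% over all genes. At RS 2 of 3 had none in cKO (Dnmt3b and Tet2; 76.2% of all such genes), and 1 of 3 had none in SV129 (Tet2; 16.4%). In sperm the single gene, Uhrf1, had none in cKO (80.4% of such genes) and none in SV129 (19.3%). No gene had a peak at an end in cKO and none in WT. Counted at RefSeq starts, 2 of the 5 genes of WT MS had none in cKO (29.6% of all such genes) and 0 had none in SV129 (8.51%). At RS 5 of 6 had none in cKO (74.9%) and 3 of 6 none in SV129 (14.8%), and in sperm both had none in cKO (80.3%) and 1 of 2, Uhrf1, none in SV129 (19.9%). At MS, RS and in sperm the cKO lists were also much shorter than the WT lists. Most coding genes with a WT peak at an end had none in cKO at RS (76.2%) and in sperm (80.4%), and 30.5% at MS. With 8 genes no departure from that background can be read. When the WT RS list was reduced to its highest-scoring peaks, as many as cKO RS holds (4075 of 56480), 0 of these genes kept a WT peak at an end. Of all coding genes 9.56% kept one, against 12% with a peak in cKO RS. The part of list length in the RS difference was not tested. The WT MS list reduced in the same way left 3 genes with a peak at an end in WT (37.6% of coding genes), against 1 in cKO (35.8%). The genes with one in WT and not in cKO were then 2.

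Nucleosome calls in the gene and 1 kb around it numbered 162 in cKO, 117 in SV129 and 154 in WT at MS. At RS they numbered 76 in cKO, 79 in SV129 and 34 in WT, at ES 229, 208 and 161 in the same order, and in sperm 71 in cKO, 1 in SV129 and 8 in WT. Per kb, the 8 genes together had 1.76 (cKO), 1.62 (SV129) and 1.35 (WT) times the density of all coding genes at MS, and 1.42, 1.16 and 0.503 times at RS. Dnmt3a alone held 104 of the 162 cKO, 75 of the 117 SV129 and 77 of the 154 WT calls at MS. The MS ratios therefore rest largely on Dnmt3a and do not describe the 8 genes evenly. Anywhere in these spans, calls were listed for 8, 8 and 8 of the genes at MS in cKO, SV129 and WT (73.2%, 65.1% and 75.1% of coding genes), and for 7, 8 and 7 at RS (63.9%, 68.4% and 63.1%). At ES they were listed for all 8 in each background (78.5%, 78.9% and 80.3%), and in sperm for 7 in cKO (71.7%), 1 in SV129 (10.4%) and 4 in WT (8.79%). At ES the density ratios were 1.73, 1.66 and 1.19 in that order. In sperm they were 0.892 in cKO, 0.314 in SV129 and 3.99 in WT, the last 2 from 1 and 8 calls. At the gene ends, calls were listed at MS for 4 of the 8 genes in cKO (57.5% of coding genes), 5 in SV129 (53.8%) and 5 in WT (62.9%). At RS there were 6 in cKO (37.9%), 6 in SV129 (54.2%) and 4 in WT (50.2%), and at ES 5 in cKO (51.1%), 7 in SV129 (53.4%) and 7 in WT (50.5%). In sperm there were 4 in cKO (44.5%), 0 in SV129 (7.45%) and 0 in WT (5.34%), where 59.8% of the few coding genes with a WT sperm call had none in SV129.

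Of the genes with a call at an end in WT, Tet1 had none in cKO MS and none in SV129 MS (18.3% of all such genes in either background). At RS none of the 4 was without a call in cKO (43.6%) or SV129 (12.9%), and Dnmt1 and Dnmt3a had one in cKO and none in WT (19.3% of genes without a WT call), as Dnmt1 and Dnmt3l had in SV129 (21.1%). At ES Tet1, Tet2 and Tet3 had none in cKO (39.7%) and Tet2 none in SV129 (36.5%). Within 1 kb of a RefSeq start, calls were listed at MS for 6 of the 8 genes in cKO (57%), 7 in SV129 (55.4%) and 8 in WT (62.7%), and at RS for 4 in cKO (35%), 7 in SV129 (54.6%) and 6 in WT (51.2%). The cKO RS list lacked them at Dnmt1, Dnmt3l, Tet1 and Tet3. Tet1 had none in SV129 RS or WT RS either, and Tet3 had none in WT RS. At ES there were 6 in each background (40.4% in cKO, 42.1% in SV129, 38.6% in WT), and in sperm 4 in cKO (39%), 0 in SV129 (7.95%) and 1 in WT (5.6%).

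Dnmt3a had the most calls of the 8 genes at MS, 104 in cKO, 75 in SV129 and 77 in WT. Its density then, 0.905 calls per kb in cKO, 0.653 in SV129 and 0.670 in WT, was above that of 98.6%, 96.4% and 92.6% of the 10039 coding genes of at least 20 kb in the same lists. At RS Dnmt3a had 23 calls in cKO, 7 in SV129 and 1 in WT. The ratio of RS to MS calls was 0.221 in cKO, 0.0933 in SV129 and 0.013 in WT, and the median over genes with at least 20 MS calls was 0.351, 0.394 and 0.333 in the same order. A ratio as low or lower was found in 31.8% of such genes in cKO, 12.1% in SV129 and 5.58% in WT. The whole RS list was 0.655 times as long as the MS list in cKO, 1.16 times in SV129 and 0.769 times in WT. Genes kept for many MS calls, Dnmt3a among them, are selected on the divisor of this ratio, which favours low values. The ratios are therefore a description only, and it was chosen after the counts were seen. At ES Dnmt3a again had 65 calls in cKO, 61 in SV129 and 37 in WT.

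**Figure D5:**
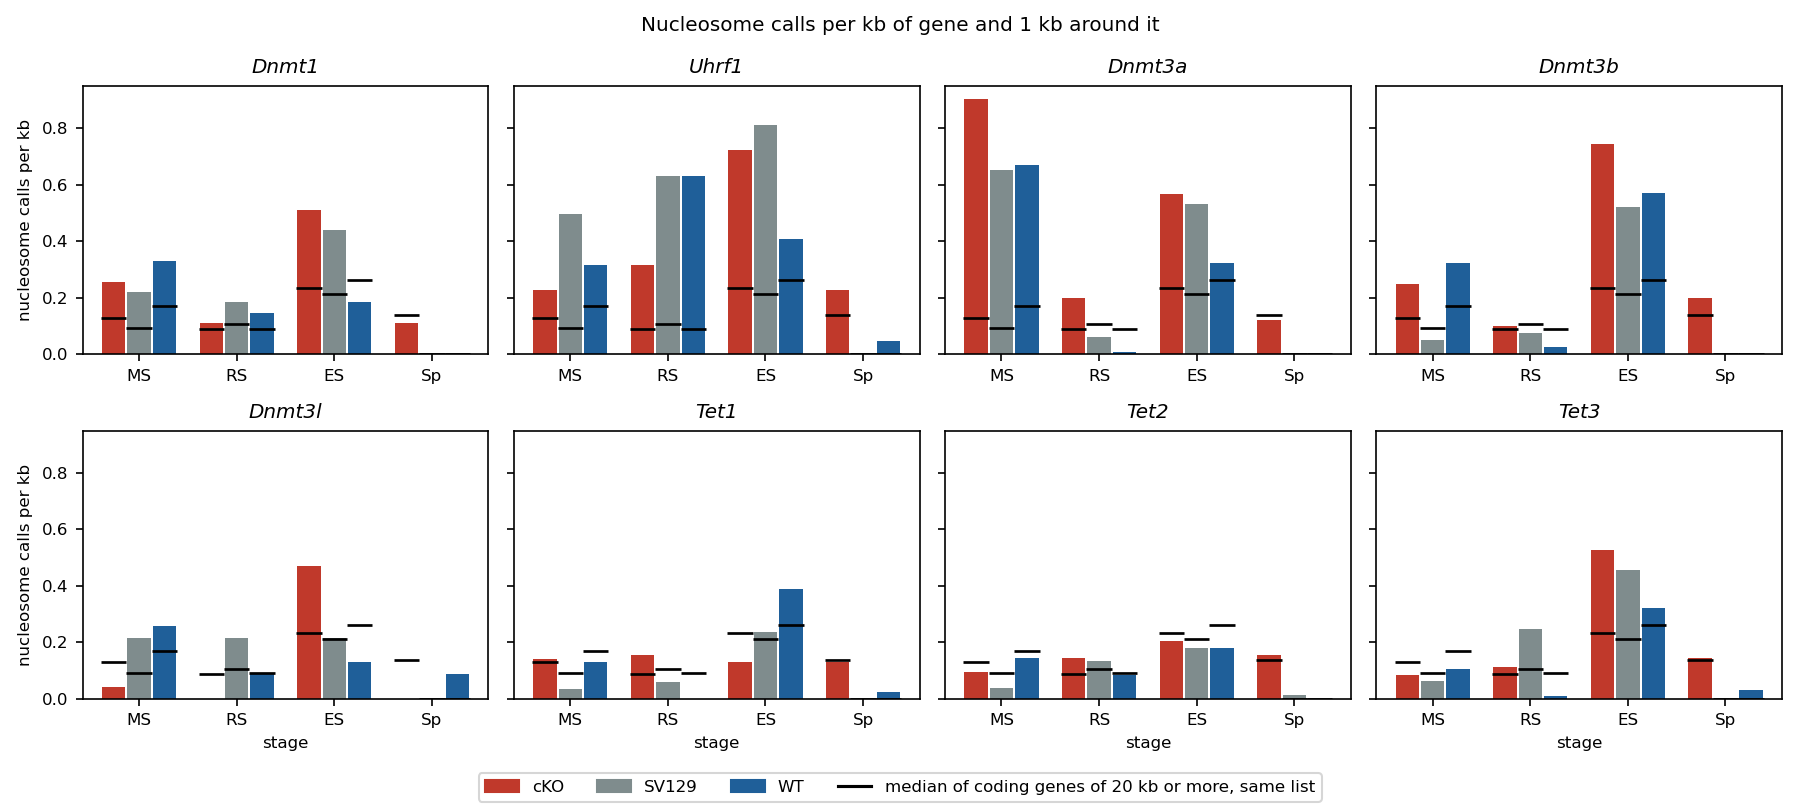
Nucleosome calls per kb of each gene and 1 kb around it, by stage (x axis) and background (bars cKO, SV129, WT), with the median of coding genes of at least 20 kb in the same list as a black line. Dnmt3a is far above the line at MS and below it at RS in SV129 and WT, and cKO sperm bars appear for every gene except Dnmt3l.

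Uhrf1 was the densest of the 8 genes at RS in all 3 backgrounds, with 0.316 calls per kb in cKO RS and 0.632 in both SV129 RS and WT RS. At ES it had 0.722 in cKO, 0.813 in SV129 and 0.406 in WT. Dnmt3b was the densest of the 8 at ES in cKO and WT, with 0.744 calls per kb in cKO, 0.521 in SV129 and 0.570 in WT, above 96.9%, 86.2% and 96.4% of the genes of at least 20 kb. Tet1 had more calls in WT than in the other backgrounds at ES, 11 in cKO, 20 in SV129 and 33 in WT, and the reverse order at RS, 13, 5 and 0. Tet3 had 11 calls in cKO RS, 24 in SV129 RS and 1 in WT RS.

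The positions of calls recurred less at ES than at MS in each pair of backgrounds. At MS, 67 of the 162 cKO calls (41.4%) overlapped a WT call, and 68 of the 154 WT calls (44.2%) a cKO call. For SV129 and WT these were 71 of 117 (60.7%) and 77 of 154 (50%). Over all coding genes, 44.2% of cKO MS calls and 76.8% of SV129 MS calls overlapped a WT call. At RS 8 of 76 cKO calls (10.5%) overlapped a WT call and 7 of 34 WT calls (20.6%) a cKO call, against 24 of 79 (30.4%) and 27 of 34 (79.4%) for SV129 and WT. Over the spans of all coding genes, 17.0% of cKO RS calls and 48.0% of SV129 RS calls overlapped a WT call. At ES only 11 of 229 cKO calls (4.80%) and 9 of 208 SV129 calls (4.33%) overlapped a WT call. Over all coding genes these shares were also low, 8.04% in cKO and 8.78% in SV129. Of the cKO calls, 74 of 162 (45.7%) at MS, 19 of 76 (25%) at RS and 34 of 229 (14.8%) at ES overlapped an SV129 call. The shares of cKO calls that overlap an SV129 call were not computed over all coding genes, so they are a description only. The cKO and SV129 share at ES was above the cKO and WT share at RS. The lists compared there differ in length, with 480320 calls in SV129 ES and 253621 in WT RS. These shares are therefore not like for like, and no difference between stages or backgrounds is read from them. The share of calls within 1 kb of a RefSeq start was also lower at ES than at MS, 10.5% in cKO, 8.65% in SV129 and 8.07% in WT, against 23.5%, 47.0% and 44.2% at MS. All coding genes differed in the same direction, with 8.75%, 8.57% and 7.42% at ES and 36.4%, 61.5% and 47.9% at MS, so the MS shares of the 8 genes pooled were below those of all genes. Dnmt3a alone held 104, 75 and 77 of the MS calls in cKO, SV129 and WT. Of these, 14, 23 and 22 lay within 1 kb of a RefSeq start. The pooled MS shares therefore rest largely on Dnmt3a and do not describe the 8 genes evenly. At RS the share of the 8 genes was 19.7% in cKO, 46.8% in SV129 and 85.3% in WT. Over all coding genes the RS shares were 19.7% in cKO, 46.0% in SV129 and 47.1% in WT, so the cKO and SV129 shares were at this background and the WT share, of 29 in 34 calls, was above it.

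Mature sperm gave the widest difference between backgrounds in nucleosome calls. In cKO the 71 calls were spread over 7 genes, with 6 in Dnmt1, 5 in Uhrf1, 14 in Dnmt3a, 8 in Dnmt3b, 11 in Tet1, 13 in Tet2 and 14 in Tet3, and none in Dnmt3l. In SV129 there was 1 call, in Tet2, and in WT there were 8, of which 3 lay at the Tet3 start, 2 in Dnmt3l, 2 in Tet1 and 1 in Uhrf1. None of the 71 cKO calls overlapped a sperm call of either intact background, and over all coding genes only 1.53% of cKO sperm calls overlapped a WT one. Of the 71, 15 overlapped an MS or RS call of SV129 or WT, and over all coding genes this held for 17.6% of 159374 cKO sperm calls. The 15 were 5 of 5 in Uhrf1, 4 of 14 in Dnmt3a, and 2 each in Dnmt1, Tet2 and Tet3, with 0 of 8 in Dnmt3b and 0 of 11 in Tet1. Many calls of a list overlap each other, and the 71 together cover 6267 bp, so these are counts of listed intervals and not of separate nucleosomes. In the same cKO sperm list, where 44.5% of all coding genes had a call at an end, calls lay at the ends of 5 of 8 Sertoli, 4 of 7 blood and immune, 0 of 6 Leydig and 0 of 8 epididymal markers. They also lay at those of 3 of 10 meiotic, 2 of 10 spermatid and 2 of 10 spermatogonial markers. In SV129 sperm none of these markers had a call, and in WT sperm 2 meiotic markers had one. The part that cells of these types, or chromatin of any other source, have in the cKO counts was not tested.

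Of the 8 intact sperm peaks in and around these genes, 4 overlapped MS or RS peaks. They lay at Dnmt1 start 2 in SV129 and WT, at Uhrf1 start 2 in WT and at the Tet2 start in SV129. The other 4, all in SV129, lay in the bodies of Uhrf1, Dnmt3b and Tet2 and outside Tet3, and matched no MS or RS peak. The SV129 sperm list is also the longer one, with 10715 peaks against 3024 in WT. The share of all intact sperm peaks that overlap MS or RS peaks was not computed. The Dnmt1 site was the only one of the 22 listed in both intact sperm lists.

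A wider set of 44 genes of DNA methylation control was read in the same way at the gene ends. It holds methyl-CpG readers, repair enzymes of the demethylation pathway, CXXC proteins that bind unmethylated CpGs, and the piRNA-guided methylation factors of the male germ line. Peaks lay at the ends of 21 of the 44 in cKO MS (47.7%), 30 in SV129 MS (68.2%) and 32 in WT MS (72.7%), each above the share of all coding genes in that list given above. At RS there were 9 in cKO, 25 in SV129 and 30 in WT (20.5%, 56.8% and 68.2%, against 12%, 43.1% and 50.3% of coding genes). At ES there were none in any list (0.119%, 0.155% and 0.0731% of coding genes). In sperm there were 2 in cKO, 16 in SV129 and 7 in WT (4.55%, 36.4% and 15.9%, against 3.55%, 23.1% and 8.7%). Of the 32 genes in WT MS, 11 had no peak in cKO and 2 had none in SV129, where the shares over all such coding genes were 30.5% and 9.31%, so the cKO count is near the background. The 6 of them with the most covered bases in WT MS were the thymine DNA glycosylase gene Tdg (0 bp in cKO, 515 in SV129, 640 in WT), the base excision repair genes Apex1 (0, 515, 475) and Smug1 (0, 247, 430), the insulator factor gene Ctcf (0, 323, 403), the histone demethylase gene Kdm2a (0, 428, 330) and the O-GlcNAc transferase gene Ogt (0, 182, 291), in the same order of backgrounds.

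Of the 30 genes in WT RS, 21 had no peak in cKO RS and 5 had none in SV129 RS, both near the 76.2% and 16.4% of all such coding genes. By covered bases in WT RS the first 6 were the histone H3 lysine methyltransferase gene Setd2 (0 bp in cKO, 218 in SV129, 1009 in WT), Uhrf2, a relative of Uhrf1 (0, 417, 960), the testis paralogue of Ctcf, Ctcfl (0, 334, 767), the piRNA pathway gene Tex15 (0, 633, 728), Ctcf (0, 430, 598) and Tdg (0, 324, 568). In sperm 6 of the 7 WT genes had no peak in cKO (80.4% of all such genes) and all 7 had one in SV129. These 6 were the histone demethylase gene Kdm1b (0 bp in cKO, 441 in SV129, 232 in WT), the glycosylase gene Mbd4 (0, 304, 227), the CXXC genes Cxxc1 (0, 241, 190) and Kmt2a (0, 89, 106), Ogt (0, 96, 125) and the repair scaffold gene Xrcc1 (0, 212, 124). Tdg had peak cover of 118 bp in cKO sperm and 147 bp in SV129 sperm, and none in WT sperm. Gadd45a, a stress gene linked to DNA repair and demethylation, was the 1 gene of the 44 with a peak in all 3 sperm lists, of 82 bp in cKO, 266 bp in SV129 and 79 bp in WT.

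Nucleosome calls lay at the ends of 31 of the 44 genes in cKO, 27 in SV129 and 36 in WT at MS (70.5%, 61.4% and 81.8%, against 57.5%, 53.8% and 62.9% of coding genes), and of 25, 25 and 26 at RS (56.8%, 56.8% and 59.1%, against 37.9%, 54.2% and 50.2%). At ES the numbers were 19, 23 and 24 (43.2%, 52.3% and 54.5%, against 51.1%, 53.4% and 50.5%). In sperm they were 24 in cKO, 3 in SV129 and 2 in WT (54.5%, 6.82% and 4.55%, against 44.5%, 7.45% and 5.34%). Of the WT genes, 5 of 36 had no call in cKO at MS (18.3% of all such genes) and 5 of 26 at RS (43.6%). In SV129, 9 of the 36 had no call at MS (18.3%) and 4 of the 26 at RS (12.9%), so at MS more were without one in SV129 than in cKO. Genes with calls in WT MS and none in cKO MS were Gadd45g (470 bp in WT), Morc1 (330 bp), Cxxc4 (215 bp), Zbtb33 (200 bp) and Ogt (105 bp), and 3 of these 5, Cxxc4, Zbtb33 and Ogt, had none in SV129 either. At RS they included Tdg (350 bp in WT), Pld6 (325 bp), Cxxc5 (170 bp) and Kdm2a (150 bp), of which Cxxc5 also had none in SV129.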

How the data were processed

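Peak and nucleosome positions were analysed as deposited, in 24 BED lists, 1 of each class per stage and background, for 34 libraries. The fifth column holds a deposited score whose meaning is not stated in the labels or headers. It was used only to rank peaks within a list. The submitters' processing notes name STAR 2.5.2a, MACS2 2.1.0.20140616 and the builds GRCm38 and mm10. How fragments were split by size, intervals called and libraries merged: not given in the sources used here. Genes came from the RefSeq table of GRCm38.p6. Strands and start sites came from its promoter table, which matched 8 of 8 genes and 17492 of 21887 coding genes (21263 promoters). Exons were not used. An interval counted from 1 bp of overlap, within 1 kb of an annotated end or in the gene. Nucleosome calls of a list often overlap each other, and each was counted by itself. Overlaps were computed in Python 3.11.15 with numpy 2.4.6 and pandas 2.3.3 and tested on simulated intervals. With 1 list per group no test was run. The 8 genes and all lists were chosen with earlier results of these data known. All 8 genes are named wherever they hold an interval. Of the wider set, the genes named have an interval at an end in WT and none in cKO at MS, RS or Sp, up to 6 per stage and class by covered bases in WT, or a peak in all 3 sperm lists. Of 46 names in that set, 44 were matched. Idax is an older name of Cxxc4, and Dnmt3c is listed as the pseudogene Dnmt3b-ps1. A gene that this rule names is not reported here.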

Additional observations from a re-analysis of the deposited data

How the results depend on the processing

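No paired analysis was possible because each list combines the libraries of a group and holds no values per library, and leaving out a library was not possible for the same reason. The counts of the 8 genes with an interval at an end are small, so a change of 1 gene often moves them by over 1.5 times. Shares of coding genes at the same setting stand in brackets. For counts of genes in WT and not in cKO, or the reverse, no such share is given here. For subnucleosome peaks, a 500 bp window gave 0 genes in cKO MS (33.1%), 0 in cKO RS (11.2%), 1 in SV129 RS (40.1%), 1 in SV129 Sp (21.2%) and 0 in WT Sp (8%). In sperm it gave 0 with a peak in WT and none in cKO. The higher-scoring 50% of each list gave 0 in cKO RS (5.76%) and 1 in WT RS (40.6%), with 1 in WT and not in cKO. At equal list length there were 0 in WT RS (9.56%, against 12% in cKO RS), 0 in WT and not in cKO, and 1 in cKO and not in WT at RS. At any listed start there were 3 in cKO MS (37.9%), 5 in SV129 MS (50.8%), 6 in WT RS (52%) and 2 in WT Sp (9.16%). There, 5 at RS and 2 in sperm were in WT and not in cKO. For nucleosome calls, a 500 bp window gave 2 in cKO MS (51.1%), 2 in SV129 MS (49.7%), 3 in WT MS (57.3%) and 3 in SV129 RS (48.5%). It gave 3 in cKO ES (37.5%), 3 in WT ES (35.7%) and 1 in cKO Sp (35.2%). With this window, 1 at RS was in WT and not in cKO, and 1 at RS, 2 at ES and 1 in sperm in cKO and not in WT. A 2 kb window gave 7 in cKO MS (64.2%) and 1 in WT Sp (6.14%), with 1 at MS and 0 at ES in cKO and not in WT, and 1 in sperm in WT and not in cKO. Counting centres gave 0 at MS in WT and not in cKO and 2 at ES in cKO and not in WT. The start end alone gave 3 in cKO ES (30%) and 2 in cKO Sp (28.9%), with 1 at RS and 2 in sperm in cKO and not in WT. Without calls of the most common score there were 3 in cKO ES (41.2%) and 2 in cKO Sp (28.7%). Of the 8 genes, 1 at RS and 5 at ES were then in WT and not in cKO, and 1 at RS, 2 at ES and 2 in sperm in cKO and not in WT. At any listed start there were 8 in WT MS (62.7%) and 1 in WT Sp (5.6%). Of the 8 genes, 2 at MS, 2 at RS and 1 in sperm were then in WT and not in cKO, and 0 at RS and 2 at ES in cKO and not in WT. Beyond the loss of genes and intervals that each setting makes by construction, the cause was not tested. The other values moved by 1.5 times at most.

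The absence of a peak in a list is not the absence of open DNA, since read depth and thresholds are unknown and the lists differ in length. The cKO peak lists are shorter at MS, RS and in sperm. At equal length, the genes with a peak at an end in WT and none in cKO numbered 2 at MS, 0 at RS and 1 in sperm. The shares of all coding genes with a peak were then 37.6% in WT and 35.8% in cKO at MS, 9.56% and 12% at RS, and 3.19% and 3.55% in sperm. In bulk cells, a smaller share of cells with an open site and fewer cuts per cell cannot be told apart either.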

Other observations

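Dnmt3c, a rodent de novo methyltransferase gene of the male germ line that arose by duplication of Dnmt3b, is listed in the RefSeq table as the pseudogene Dnmt3b-ps1 at chr2:153706484-153730013 and was therefore outside the coding genes counted above. No subnucleosome peak lay in it or within 1 kb of it in any of the 12 lists. Nucleosome calls there numbered 0 in each MS list, 3 in cKO RS, 2 in SV129 RS and 0 in WT RS. At ES they numbered 7 in cKO, 3 in SV129 and 7 in WT, and in sperm 6 in cKO, 0 in SV129 and 0 in WT. The gene is a near copy of Dnmt3b, and the treatment of reads that map to both genes is not stated in the labels, so these counts and those of Dnmt3b are uncertain.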
